A study of Mus musculus with 12 samples.

Results

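Fos, Fosb, Fosl1, Fosl2, Jun, Junb, Jund, Atf3, Egr1 and Ier3 were chosen by name as genes of the AP-1 transcription factor and of the immediate early response, and their rows were taken from the deposited gene table. They are 10 of the 54532 genes of that table, and all 10 passed the filter on low values. AP-1 is a dimer of basic leucine zipper (bZIP) proteins: FOS proteins bind DNA only together with a JUN partner, whereas JUN proteins also pair with each other and with ATF proteins. Most of these genes are immediate early genes, which growth factors, cytokines and stress switch on within minutes through MAP kinases and factors that are already present, with no new protein needed. In the gut AP-1 is known for its part in epithelial renewal and repair and in the transcription of cytokines and matrix proteases, and several members are known to react to tissue handling.

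The RNA came from the colon of adult C57BL/6N mice and was sequenced as 12 libraries, so that 4 groups held 3 libraries each. The Tmem173 gene of Tmem173fl/fl mice is floxed. It codes for STING, the adaptor of cytosolic DNA sensing, and these mice lack Cre. Tmem173iΔmye mice carry the same floxed gene and a tamoxifen-inducible Cre under Lyz2, a gene of myeloid cells, so that deletion is aimed at macrophages, neutrophils and their relatives and leaves the gene in other cells. All mice, controls included, had 5 injections of tamoxifen into the abdomen. The colitic groups of both genotypes had dextran sulfate sodium (DSS), an agent that damages the lining of the colon, in their water for 7 days and then plain water for 1 day before the colon was taken, and the untreated groups drank water throughout. The colitic Tmem173iΔmye libraries carry the replicate numbers 1, 2 and 5, and the others 1, 2 and 3.

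Library totals ran from 13823237 to 18718915 counts, and the 10 genes had from 20 counts (Fosl1, the lowest value) to 9357 counts (Egr1, the highest), so counting error was small beside the spread between libraries for most of them. The 13 colon epithelium markers were present in every group, and pancreas transcripts, which do not belong to colon, ran in sum from 43.4 to 7807 FPKM in single libraries. Xist was high and Y-linked counts were absent in 1 library each of the untreated Tmem173fl/fl, untreated Tmem173iΔmye and colitic Tmem173iΔmye groups and in 0 of the colitic Tmem173fl/fl group. Tmem173 itself did not pass the test between colitic Tmem173iΔmye and colitic Tmem173fl/fl libraries (-0.28 ± 0.265 on the log2 scale, SE, edgeR adjusted p 0.602). Counts per gene do not separate the exons, and the deletion is not aimed at other cells. Whether either bears on this value was not tested. Levels below are FPKM (counts scaled by gene length, library total and 1 constant per library), as mean ± standard deviation (SD) over 3 libraries. A gene passed the test at a Benjamini-Hochberg adjusted p under 0.05 over 24102 tested genes, from edgeR's quasi-likelihood test, and a log2 fold change of at least 1 in size. SE is the standard error of the log2 fold change.

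The promoters of 4 of the genes are shown first, because these genes moved in different ways below: with DSS in Tmem173fl/fl colon Ier3 and Junb rose, Atf3 fell, and Fos, the founding FOS gene, did not pass the test. Each sequence is the 250 bases before the RefSeq transcription start, on the gene's own strand in GRCm38.p6, at chr17:35821463-35821712 for Ier3 (plus strand), chr8:84978749-84978998 for Junb (minus), chr12:85473640-85473889 for Fos (plus) and chr1:191183334-191183583 for Atf3 (minus). Capitals mark a match to one of the motifs named in the next paragraph.
Ier3: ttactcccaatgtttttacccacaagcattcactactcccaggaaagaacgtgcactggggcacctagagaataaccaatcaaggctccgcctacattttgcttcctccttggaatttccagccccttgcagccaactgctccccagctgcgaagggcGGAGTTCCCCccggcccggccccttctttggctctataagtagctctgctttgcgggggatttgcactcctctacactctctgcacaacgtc
Junb: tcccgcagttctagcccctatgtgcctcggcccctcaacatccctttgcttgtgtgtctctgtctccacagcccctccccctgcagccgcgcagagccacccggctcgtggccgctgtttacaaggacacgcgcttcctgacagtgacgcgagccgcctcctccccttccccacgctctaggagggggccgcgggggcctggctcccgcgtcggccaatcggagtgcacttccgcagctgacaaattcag
Fos: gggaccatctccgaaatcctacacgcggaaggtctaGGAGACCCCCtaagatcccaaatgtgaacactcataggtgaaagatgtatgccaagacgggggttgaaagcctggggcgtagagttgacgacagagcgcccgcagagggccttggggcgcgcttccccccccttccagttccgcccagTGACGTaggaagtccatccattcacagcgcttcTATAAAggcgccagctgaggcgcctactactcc
Atf3: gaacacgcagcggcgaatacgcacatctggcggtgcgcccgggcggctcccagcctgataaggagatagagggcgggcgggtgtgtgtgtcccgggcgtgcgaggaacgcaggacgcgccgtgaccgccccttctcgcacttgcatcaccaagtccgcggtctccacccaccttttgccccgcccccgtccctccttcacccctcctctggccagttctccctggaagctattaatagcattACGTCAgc

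The motifs were searched on both strands of the RefSeq window from 250 bases before to 50 bases after the start, which 8 of the 10 genes had in the table (not Fosl1 and Egr1). The NF-kB motif was found in Ier3, Fos, Fosb and Fosl2 and in 4.51% of all 32851 promoters of that table. The cAMP response element core TGACGT, which is part of the full element TGACGTCA, was found in Fos 66 bases before the start and on the other strand of Atf3, 8 bases before it, and in 7.51% of all promoters. The full element, in 1.79% of promoters, the AP-1 motif TGACTCA or TGAGTCA, in 5.2%, and the CArG box that serum response factor binds, in 1.63%, were matched in none of the 8 windows. The EGR motif, searched as GCGGGGGCG or GCGTGGGCG, was found in Fosb 50 bases and in Fosl2 79 bases before the start, both as GCGGGGGCG, and in 3.47% of promoters. The TATA box TATAAA was found in Fos 33 bases before the start and in Junb at the RefSeq start itself, which lies 30 bases upstream of the 5′ end that the deposited table gives for Junb, and in 13.6% of promoters. The RefSeq start of Atf3 lies 34706 bases inside the gene as the deposited table gives it, since that gene model has a longer 5′ end. These matches describe letters, and a motif that was not matched here may lie elsewhere or be spelled otherwise.

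**Figure D1:**
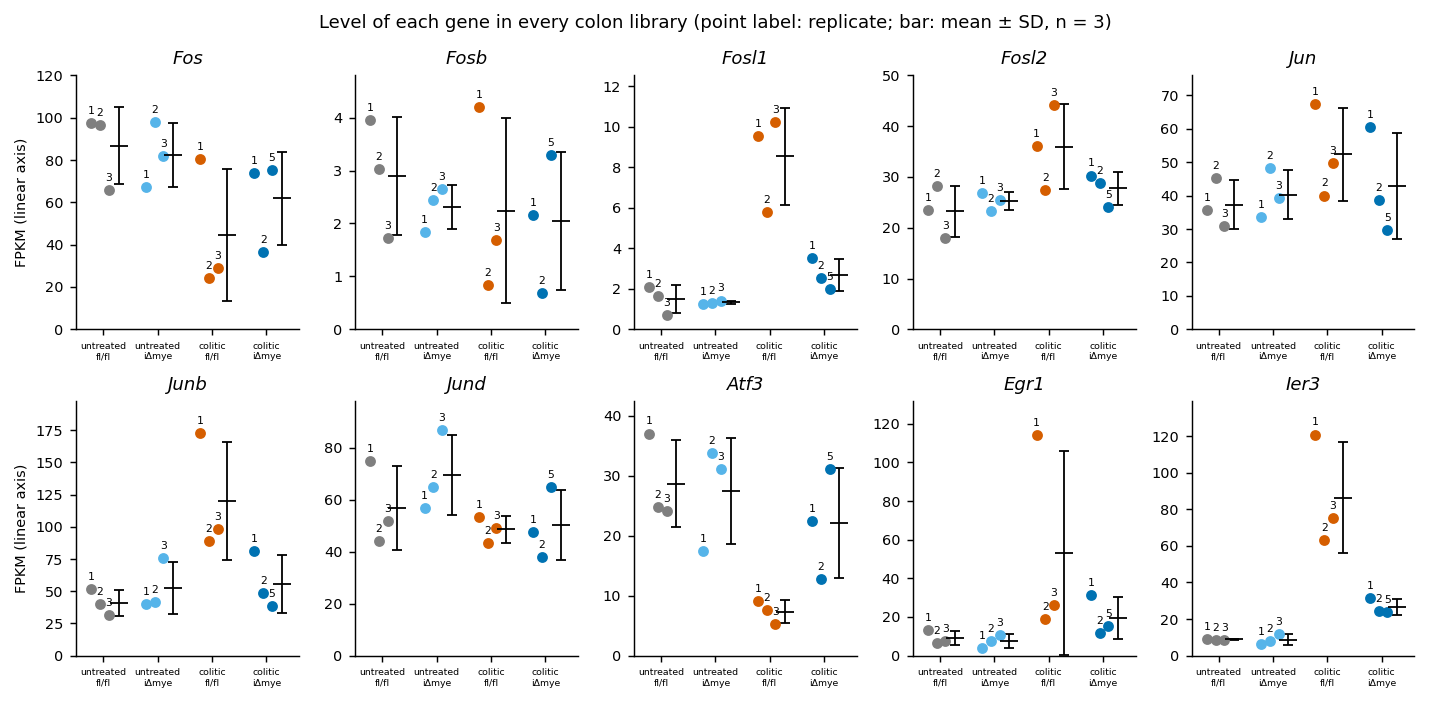
Level of each of the 10 genes (FPKM, linear axes from 0) in every library, by group. Points are libraries labelled with their replicate number, and the bars are mean ± SD (n = 3). Ier3, Fosl1 and Junb were higher in all 3 colitic Tmem173fl/fl libraries than in any untreated library, and Atf3 was lower.

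Without DSS, Fos had the highest level of the 10 in both genotypes, at 86.7 ± 18.2 FPKM in Tmem173fl/fl and 82.4 ± 15.3 FPKM in Tmem173iΔmye colon. Jund, Junb, Jun, Atf3 and Fosl2 followed, from 56.9 down to 23.2 FPKM in Tmem173fl/fl colon, and each neighbouring pair in that order overlapped between libraries. Below a gap that no library crossed came Egr1 and Ier3, at 9.07 ± 3.51 and 8.83 ± 0.354 FPKM, and then Fosb and Fosl1, at 2.90 ± 1.12 and 1.48 ± 0.692 FPKM. In colitic Tmem173fl/fl colon the order was different. Junb was first at 120.1 ± 45.8 FPKM, Ier3 the second at 86.4 ± 30.5 FPKM and Egr1 the third at 53.2 ± 53.0 FPKM, while Fos was the sixth at 44.6 ± 31.3 FPKM and Atf3 the ninth at 7.30 ± 1.90 FPKM. Each neighbouring pair from Junb down to Fosl2 overlapped, and the place of Egr1 rests on replicate 1, at 114.2 FPKM against 19.0 and 26.2 FPKM in replicates 2 and 3. Colitic Tmem173iΔmye colon kept Fos first at 61.9 ± 21.9 FPKM and Junb the second at 55.9 ± 22.5 FPKM, with overlap between their libraries.

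The first comparison asked what DSS did to the 10 genes in Tmem173fl/fl colon. Of the 10, 4 rose (Ier3, Egr1, Fosl1 and Junb) and 1 fell (Atf3). Over all tested genes 14.9% rose and 7.61% fell. The median log2 fold change of the 10 was 0.58, against 0.03 over all tested genes. In bulk tissue fewer cells of a type and less RNA per cell cannot be told apart, here or in any comparison that follows. Markers of several cell types moved as well, as given further on.

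Of the FOS subunits, only Fosl1 passed the test. Fosl1 (Fra-1; ENSMUSG00000024912, GRCm38 chromosome 19, 5447703 to 5455945), a FOS protein without the strong activation domain of Fos and known for its role in invasion and wound repair, was at 2.07, 1.66 and 0.719 FPKM in the untreated Tmem173fl/fl libraries 1, 2 and 3 and at 9.55, 5.81 and 10.2 FPKM in the colitic ones. Every colitic library was well above every untreated one. The rise was 5.85-fold, or 2.55 ± 0.37 on the log2 scale (SE, edgeR adjusted p 0.000534).

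Fos (ENSMUSG00000021250, chromosome 12, 85473890 to 85477273) was at 97.6, 96.8 and 65.6 FPKM in the untreated Tmem173fl/fl libraries and at 80.7, 24.2 and 28.9 FPKM in the colitic ones. Colitic replicates 2 and 3 lay far below every untreated library, while replicate 1 lay among them. The log2 fold change of -0.94 ± 0.40 (SE) did not pass the test (edgeR adjusted p 0.0919). Without colitic replicate 1 it was -1.71 ± 0.23 (SE) and passed (edgeR adjusted p 0.00057). With a block for replicate number it was -1.135 and passed (edgeR adjusted p 0.017). Replicate numbers did not pair these libraries, however. The deviations of same-numbered libraries from their group means correlated at -0.092, -0.11 and -0.17 for replicates 1, 2 and 3. Fosb is a close relative of Fos. Its levels of 4.19, 0.832 and 1.69 FPKM in the colitic libraries spanned those of the untreated ones, 3.95, 3.03 and 1.72 FPKM. Its log2 fold change was -0.36 with all libraries (edgeR adjusted p 0.623) and -1.21 without colitic replicate 1 (edgeR adjusted p 0.0475). Without colitic replicate 2 the value for Fosb was 0.02.

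Fosl2 (Fra-2), the other short FOS protein, was at 23.5, 28.1 and 18.0 FPKM in untreated and at 36.2, 27.4 and 44.2 FPKM in colitic Tmem173fl/fl libraries, so colitic replicate 2 lay among the untreated libraries. Its log2 fold change of 0.65 ± 0.21 (SE) had an edgeR adjusted p of 0.037 but was under the fold threshold.

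Among the JUN subunits Junb rose and neither Jun nor Jund passed the test. Junb (ENSMUSG00000052837, chromosome 8, 84974484 to 84978718), a JUN protein that is a weaker activator than Jun in many settings and a partner of BATF proteins in immune cells, was at 51.4, 39.9 and 31.4 FPKM in untreated Tmem173fl/fl libraries and at 172.8, 89.1 and 98.6 FPKM in colitic ones. The lowest colitic library was above the highest untreated one. The rise was 2.97-fold, or 1.57 ± 0.27 on the log2 scale (SE, edgeR adjusted p 0.0014). Junb shares 351 bases with Prdx2 on the opposite strand, which had 950 to 2146 counts, and the use of strand in counting was not given in the sources used here, so some reads could belong to either gene.

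Jun (c-Jun, the main partner of FOS proteins) ran from 30.9 to 45.3 FPKM in untreated and from 40.05 to 67.3 FPKM in colitic Tmem173fl/fl colon, with a log2 fold change of 0.51 ± 0.21 (SE, edgeR adjusted p 0.084). Jund, which is made by most cells at rest, ran from 44.1 to 74.9 FPKM and from 43.2 to 53.4 FPKM, with a log2 fold change of -0.21 ± 0.20 (SE, edgeR adjusted p 0.446). The groups overlapped for both genes. Intervals here and below are 1.96 SE to each side, which is too narrow for 3 libraries per group. The 95% interval of the difference reached from 0.10 to 0.92 for Jun and from -0.59 to 0.17 for Jund. Jun shares 689 bases with the antisense gene Junos, which had 17 to 64 counts in a library.

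Atf3 (ENSMUSG00000026628, chromosome 1, 191170296 to 191218039), a stress-induced bZIP protein that represses many inflammatory genes, was the member that fell. Its levels were 37.0, 24.7 and 24.2 FPKM in untreated Tmem173fl/fl libraries and 9.02, 7.61 and 5.26 FPKM in colitic ones. No colitic library came near the untreated ones, and colitic colon held 0.259 of the untreated level. The log2 fold change was -1.95 ± 0.24 (SE, edgeR adjusted p 0.000162), and it stayed between -2.15 and -1.72 whichever library was left out.

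Ier3 (IEX-1; ENSMUSG00000003541, chromosome 17, 35821684 to 35822923), a stress-inducible regulator of cell survival and a target of NF-kB, had the largest change of the 10. It was at 9.24, 8.68 and 8.57 FPKM in untreated Tmem173fl/fl libraries and at 120.9, 63.2 and 75.0 FPKM in colitic ones. The untreated libraries lay close together and far below each colitic one. The rise was 9.89-fold, or 3.31 ± 0.24 on the log2 scale (SE, edgeR adjusted p 6.938e-06).

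Egr1 (ENSMUSG00000038418, chromosome 18, 34859823 to 34864984), a zinc finger factor that serum response factor switches on, was at 13.1, 6.48 and 7.67 FPKM in untreated Tmem173fl/fl libraries and at 114.2, 19.0 and 26.2 FPKM in colitic ones. All colitic libraries were above all untreated ones, but replicate 1 held several times the level of the others. The log2 fold change of 2.57 ± 0.61 (SE, edgeR adjusted p 0.00821) was 1.32 without that library and still passed. In limma on log2(FPKM + 0.1) the value was 2.14 and did not pass (adjusted p 0.0753).

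Colitic Tmem173fl/fl replicate 1 had the highest level of its group for 8 of the 10 genes, all but Fosl1 and Fosl2, and replicate 2 the lowest for 9. The summed level of the 8 pancreas markers in these colitic libraries was 7212, 3566 and 451.4 FPKM in replicates 1, 2 and 3, and 7807 FPKM in colitic Tmem173iΔmye replicate 1, the library of that group with the highest Fosl1, Fosl2, Junb, Jun, Egr1 and Ier3. Fos, Fosb, Jund and Atf3 were highest in colitic Tmem173iΔmye replicate 5, where the pancreas sum was 94.0 FPKM. Their part in the levels of the 10 genes was not tested.

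**Figure D2:**
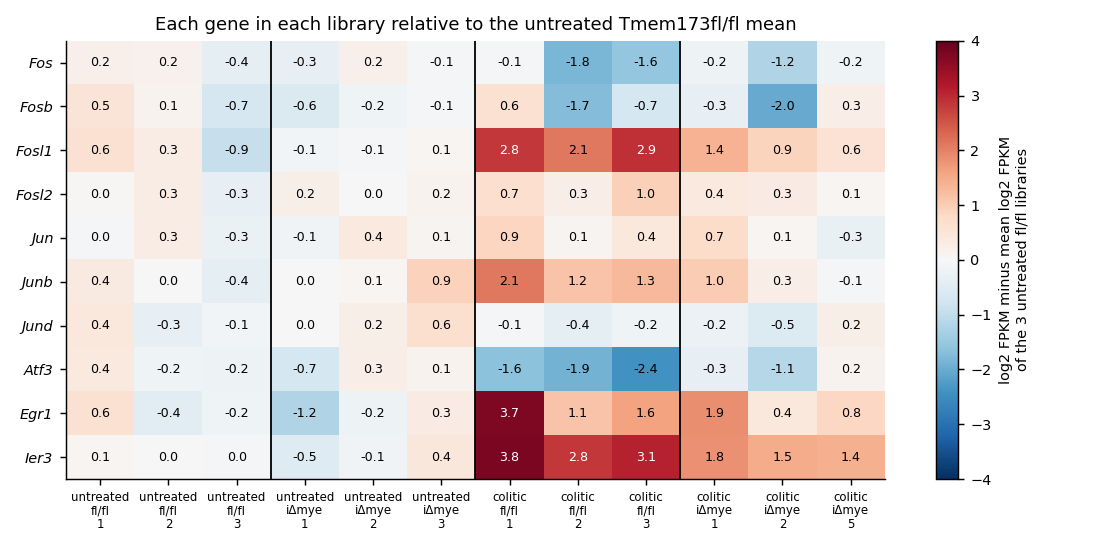
Each gene (rows) in each library (columns) as log2 FPKM minus the mean log2 FPKM of the 3 untreated Tmem173fl/fl libraries, with red for higher and blue for lower. In colitic Tmem173fl/fl replicate 1 Egr1 and Ier3 stood highest and Fos near the untreated level, whereas Fos was low in replicates 2 and 3.

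The make-up of the FOS and JUN families was compared between untreated and colitic Tmem173fl/fl colon by shares, for which an exact test of 3 libraries against 3 cannot go below p = 0.1. Shares were taken of the summed FPKM, since levels of different genes can be compared per length only. Fosl1 and Fosl2 together made up 21.6 ± 1.43% of the FOS family transcripts in untreated Tmem173fl/fl colon and 52.0 ± 15.1% in colitic colon, and the groups did not overlap. The shares of Fos itself in the 3 colitic libraries were 61.8%, 41.5% and 34.0%, against 74.7% to 76.8% without DSS. The FOS family as a whole summed to 114.3 ± 24.4 FPKM without and 91.3 ± 36.6 FPKM with DSS, with overlap.

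Junb made up 30.1 ± 2.21% of the JUN family transcripts in untreated and 53.5 ± 4.74% in colitic Tmem173fl/fl colon, and replicate 1, with the highest level, was close to the others at 58.9% against 51.7% and 49.9%. The share of Atf3 in the 8 FOS, JUN and ATF3 genes was 10.3 ± 1.38% without and 2.37 ± 0.726% with DSS. For these 3 shares the exact two-sided permutation test gave p = 0.1 each, the smallest p that 3 libraries against 3 allow, and 0.24 after Benjamini-Hochberg adjustment over 12 such tests.

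**Figure D3:**
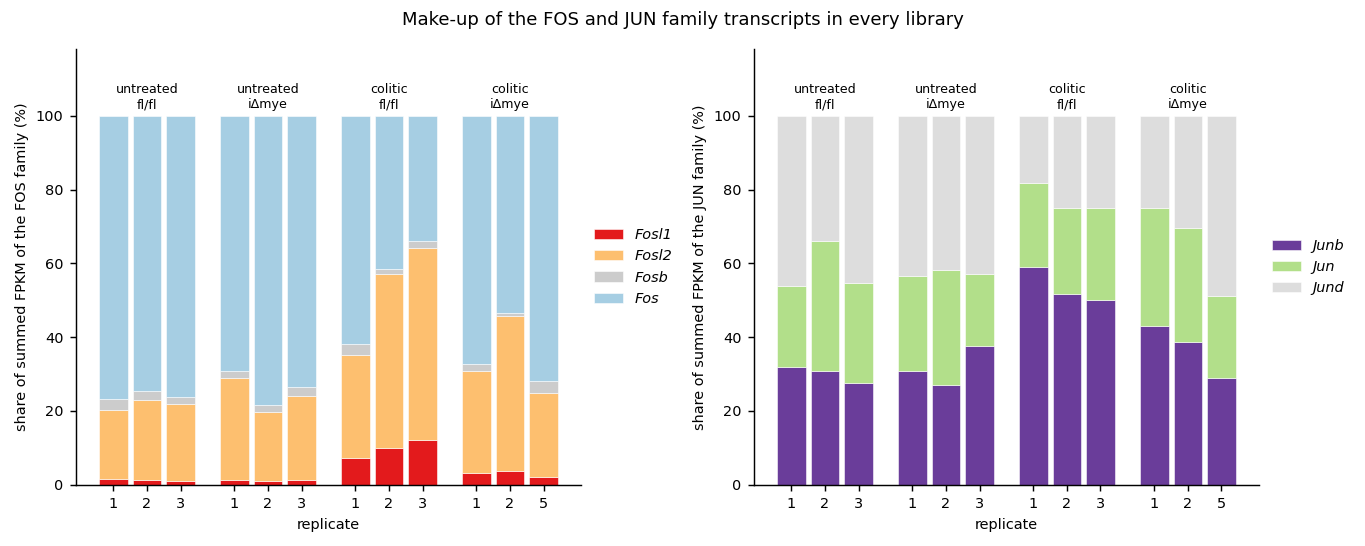
Share (%) of each gene in the summed FPKM of the FOS family (left) and the JUN family (right), 1 bar per library, grouped by genotype and treatment. Fosl1 and Fosl2 averaged 21.6% in untreated and 52.0% in colitic Tmem173fl/fl colon and Junb 30.1% and 53.5%, without overlap between the libraries (exact p = 0.1 each, the smallest that 3 against 3 allow). In the colitic Tmem173iΔmye bars Fosl2 ran from 23.0% to 42.0% and Junb from 28.8% to 42.9%.

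The same comparison in Tmem173iΔmye colon, which shares no library with the first, found a change in 1 of the 10 genes. Ier3 rose from 6.18, 8.07 and 11.98 FPKM in the untreated libraries 1, 2 and 3 to 31.6, 24.6 and 23.8 FPKM in the colitic libraries 1, 2 and 5. These groups did not overlap. The rise was 3.02-fold, or 1.59 ± 0.28 on the log2 scale (SE, edgeR adjusted p 0.0198). Over all tested genes 1.48% rose and 0.597% fell, and the median of the 10 was 0.07 against 0.02. The rise of Ier3 lost its call without untreated replicate 1 (1.40, edgeR adjusted p 0.143), 2 (1.54, edgeR adjusted p 0.141) or 3 (1.91, edgeR adjusted p 0.057), without colitic replicate 1 (1.47, edgeR adjusted p 0.0569) and in limma (1.64, adjusted p 0.113).

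Egr1 was at 3.74, 7.58 and 10.8 FPKM in untreated and at 31.6, 11.6 and 15.3 FPKM in colitic Tmem173iΔmye libraries, again without overlap. Its log2 fold change of 1.38 ± 0.42 (SE) did not pass over all genes (edgeR adjusted p 0.142), but DESeq2 gave an adjusted p of 0.0176. With a block for replicate number the value was 1.81 and passed (edgeR adjusted p 0.00825). That fit rests on replicates 1 and 2 alone, the only numbers that both groups hold, and the numbers did not pair the libraries. Without colitic replicate 5 the value was 1.56 (edgeR adjusted p 0.0498), and without colitic replicate 1 it was 0.86 (edgeR adjusted p 0.397). Fosl1 was at 1.25, 1.30 and 1.42 FPKM in untreated and at 3.54, 2.52 and 2.01 FPKM in colitic libraries, with a log2 fold change of 1.001 ± 0.35 (SE, edgeR adjusted p 0.202).

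The other members did not pass. Atf3, which fell in Tmem173fl/fl colon, was at 17.4, 33.8 and 31.03 FPKM in untreated and at 22.5, 12.8 and 31.2 FPKM in colitic Tmem173iΔmye libraries, with overlap, and its log2 fold change was -0.32 with a 95% interval from -0.98 to 0.34. Junb, which rose in Tmem173fl/fl colon, was at 39.95, 41.9 and 75.5 FPKM in untreated and at 81.2, 48.2 and 38.3 FPKM in colitic libraries, with a log2 fold change of 0.075 and an interval from -0.55 to 0.70. Fos was at 67.4, 98.0 and 81.8 FPKM and at 73.7, 36.7 and 75.4 FPKM, with a log2 fold change of -0.425 and an interval from -0.98 to 0.13. Fosb, Fosl2, Jun and Jund had log2 fold changes from -0.48 to 0.12. The shares of Fosl1 and Fosl2 (24.3 ± 4.61% without and 33.8 ± 10.7% with DSS), of Junb (31.7 ± 5.30% and 36.8 ± 7.22%) and of Atf3 (8.96 ± 1.84% and 8.26 ± 2.92%) overlapped between the groups.

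Between the genotypes without DSS, 0 of the 10 genes passed edgeR's test and 0 had an unadjusted p under 0.05, the smallest being 0.161 for Junb. Over all tested genes 0% passed, 720 genes had an unadjusted p under 0.05, and DESeq2 called 8 genes, of which 0 were among the 10. The log2 fold changes ran from -0.33 for Fosb to 0.36 for Junb. The 95% interval, too narrow at this number of libraries, ran from -0.49 to 0.47 for Ier3 and from -0.53 to 0.41 for Atf3. Even so it left room for differences under the fold threshold.

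The second main comparison set colitic Tmem173iΔmye against colitic Tmem173fl/fl colon, and it shares its Tmem173fl/fl libraries with the first comparison. Of the 10 genes 2 were lower in Tmem173iΔmye colon (Fosl1 and Ier3) and 1 was higher (Atf3). Over all tested genes 1.99% were lower and 0.822% higher. The median of the 10 was -0.30, against 0.02.

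Ier3, at 31.6, 24.6 and 23.8 FPKM, was lower in every Tmem173iΔmye library than in any Tmem173fl/fl library, where it was at 63.2 to 120.9 FPKM. The level was 0.315 of that in Tmem173fl/fl colon, or -1.67 ± 0.26 on the log2 scale (SE, edgeR adjusted p 0.0211). The call was lost without Tmem173fl/fl replicate 1 (-1.33, edgeR adjusted p 0.073) or 3 (-1.75, edgeR adjusted p 0.0529) and without Tmem173iΔmye replicate 2 (-1.60, edgeR adjusted p 0.086), and in limma (-1.65, adjusted p 0.0862).

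Fosl1 was at 3.54, 2.52 and 2.01 FPKM in colitic Tmem173iΔmye libraries, all below the lowest Tmem173fl/fl library at 5.81 FPKM. The log2 fold change was -1.64 ± 0.33 (SE, edgeR adjusted p 0.0371). It ran from -1.84 to -1.47 without Tmem173fl/fl replicate 1, 2 or 3 or Tmem173iΔmye replicate 2 or 5, and each of these omissions ended the call (edgeR adjusted p from 0.0547 to 0.165), as did limma (-1.63, adjusted p 0.0995). The omission of Tmem173iΔmye replicate 5 (-1.47, edgeR adjusted p 0.0687) is also the restriction to libraries with Y-linked counts in this comparison.

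Atf3 was at 22.5, 12.8 and 31.2 FPKM in colitic Tmem173iΔmye libraries, all above the highest Tmem173fl/fl library at 9.02 FPKM, and 3.10-fold higher. The log2 fold change was 1.63 ± 0.35 (SE, edgeR adjusted p 0.0456). Leaving out any 1 of the 6 libraries ended the call, with values from 1.29 to 1.92 and edgeR adjusted p from 0.0523 to 0.135. The omission of Tmem173iΔmye replicate 5 (1.29, edgeR adjusted p 0.0821) is also the restriction to libraries with Y-linked counts here. The call was lost as well with scaling by library totals (1.51, edgeR adjusted p 0.0531), filterByExpr (1.64, edgeR adjusted p 0.0515) and limma (1.53, adjusted p 0.138). With a block for replicate number, which rests on replicates 1 and 2 of each genotype alone, the value was 1.05 (edgeR adjusted p 0.0811).

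Junb was at 81.2, 48.2 and 38.3 FPKM against 172.8, 89.1 and 98.6 FPKM, with no overlap. Its log2 fold change of -1.08 ± 0.35 (SE) did not pass (edgeR adjusted p 0.132). Without Tmem173iΔmye replicate 1, the highest library of its group, it was -1.45 and passed (edgeR adjusted p 0.0456). Without Tmem173fl/fl replicate 1 the value for Junb was -0.71 (edgeR adjusted p 0.418). Egr1, at 31.6, 11.6 and 15.3 FPKM against 114.2, 19.0 and 26.2 FPKM, overlapped between the genotypes. Its log2 fold change of -1.42 (SE 0.67, edgeR adjusted p 0.276) came to -0.17 without Tmem173fl/fl replicate 1.

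Fos, at 73.7, 36.7 and 75.4 FPKM against 80.7, 24.2 and 28.9 FPKM, overlapped as well, with 0.51 on the log2 scale (edgeR adjusted p 0.59). Leaving out Tmem173fl/fl replicate 1 gave 1.27 for Fos (edgeR adjusted p 0.201). Fosb, Fosl2, Jun and Jund lay between -0.35 and 0.08. The share of Junb in the JUN family was 36.8 ± 7.22% against 53.5 ± 4.74%, and that of Atf3 in the 8 genes 8.26 ± 2.92% against 2.37 ± 0.726%, both without overlap and with p = 0.1 by the exact two-sided permutation test (0.24 after adjustment). For Fosl1 and Fosl2 the shares of 33.8 ± 10.7% and 52.0 ± 15.1% overlapped (p = 0.2 by the same exact test, 0.343 after adjustment).

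**Figure D4:**
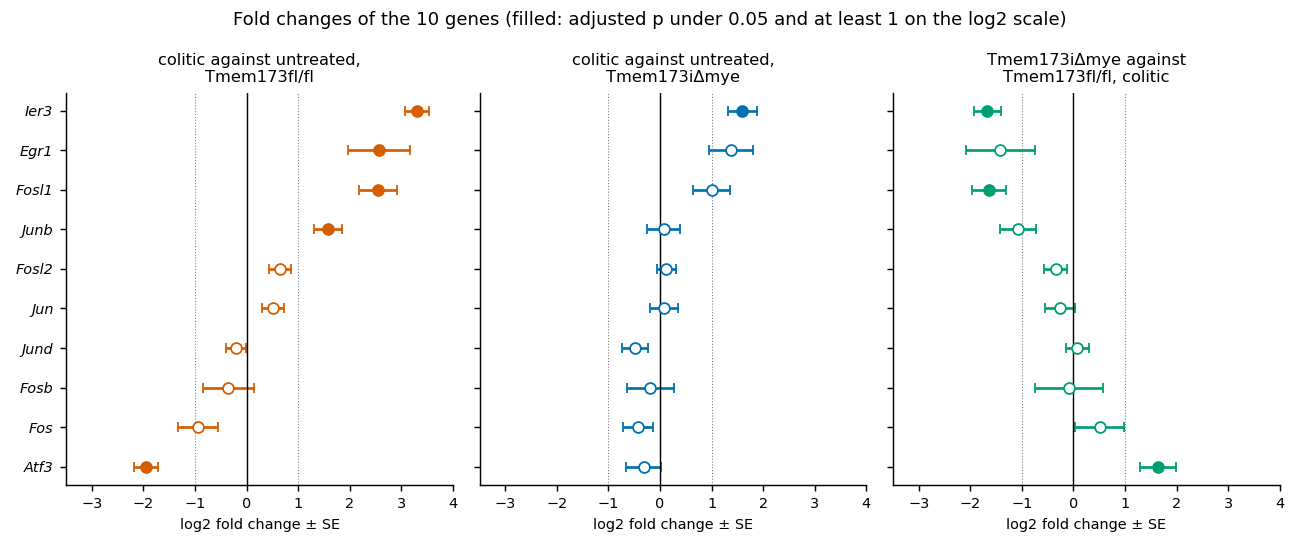
Log2 fold change ± SE of the 10 genes for DSS in Tmem173fl/fl (left) and in Tmem173iΔmye colon (middle) and for Tmem173iΔmye against Tmem173fl/fl in colitis (right), with dotted lines at the fold threshold of 1. Filled points passed the test. The left and right panels share the colitic Tmem173fl/fl libraries.

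The difference between the 2 responses to DSS was tested as an interaction over all 12 libraries. Only Ier3 of the 10 passed it, with a log2 difference of -1.64 ± 0.37 (SE, edgeR adjusted p 0.0328), so its rise was smaller in Tmem173iΔmye colon. Over all tested genes 0.934% had a positive and 1.61% a negative interaction. For Ier3 the edgeR adjusted p rose above the threshold, from 0.0533 to 0.0824, without untreated Tmem173fl/fl replicate 1, 2 or 3, untreated Tmem173iΔmye replicate 2 or 3, colitic Tmem173fl/fl replicate 1 or colitic Tmem173iΔmye replicate 2 or 5, with values from -1.69 to -1.35. With only the libraries that held Y-linked counts it was -1.29 (edgeR adjusted p 0.186), and in limma -1.58 (adjusted p 0.086).

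For the other members the interaction did not pass. It was 1.71 for Atf3 (SE 0.46, edgeR adjusted p 0.068), -1.42 for Junb (SE 0.47, edgeR adjusted p 0.129), -1.47 for Fosl1 (SE 0.52, edgeR adjusted p 0.152) and -1.12 for Egr1 (SE 0.84, edgeR adjusted p 0.521). Atf3 passed without colitic Tmem173iΔmye replicate 2 (1.98, edgeR adjusted p 0.033) and Junb without colitic Tmem173iΔmye replicate 1 (-1.78, edgeR adjusted p 0.0287). With only the libraries that held Y-linked counts Atf3 was at 1.54 (edgeR adjusted p 0.215) and Junb at -0.73 (edgeR adjusted p 0.53). Fosl1 was then at -0.95 (edgeR adjusted p 0.418). Without colitic Tmem173fl/fl replicate 1 the value for Egr1 was 0.06. DESeq2 called Atf3 (1.66, adjusted p 0.012), Junb (-1.47, adjusted p 0.0366) and Fosl1 (-1.52, adjusted p 0.0458), and edgeR with no filter on low genes called Atf3 (1.65, adjusted p 0.00913) and Junb (-1.49, adjusted p 0.0205). Whether the responses of Atf3, Junb and Fosl1 differed between the genotypes therefore depends on the test, the filter or the libraries used.

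Pathway genes around AP-1 were described from lists by their counts and medians. Their counts stand beside 14.9% of all tested genes that rose and 7.61% that fell with DSS in Tmem173fl/fl colon, 1.48% and 0.597% in Tmem173iΔmye colon, and 0.822% higher and 1.99% lower between the colitic genotypes. Of 11 other bZIP genes that can join or compete with AP-1, 7 rose and 1 fell with DSS in Tmem173fl/fl colon, with a median log2 fold change of 1.56 against 0.03 over all tested genes. Jdp2, a repressor that pairs with JUN proteins, rose from 1.39 ± 0.048 to 12.4 ± 1.10 FPKM (3.17, SE 0.19, edgeR adjusted p 2.259e-06), Batf3, a factor of dendritic cells, by 2.02 and Maf by 1.85, while Batf2 fell from 34.8 ± 14.2 to 6.25 ± 2.33 FPKM (-2.45, SE 0.33, edgeR adjusted p 0.000309). In colitic Tmem173iΔmye against colitic Tmem173fl/fl colon Jdp2 (-1.70) and Maff (-1.02) were lower and Batf2 (1.66) was higher, and the median was -0.77 against 0.02. With DSS in Tmem173iΔmye colon 0 of the 11 passed and 2 had an unadjusted p under 0.05.

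Of 25 other immediate early genes tested, 14 rose and 1 fell with DSS in Tmem173fl/fl colon (14.9% and 7.61% of all tested genes), with a median of 1.10. The largest rises were those of Ier5l (3.20), of the orphan nuclear receptor gene Nr4a1 (2.87), of the kinase gene Sik1 (2.70) and of Klf2 (2.48), a factor of endothelium and leukocytes. The member that fell was Klf4, which differentiated epithelium makes (-1.27, named after its value was seen). In Tmem173iΔmye colon 0 of the 25 passed, with 7 at an unadjusted p under 0.05. Nr4a1 (-2.29), Sik1 (-1.64), Csrnp1 (-1.63) and Klf2 (-1.55) were lower in Tmem173iΔmye colon when both genotypes were colitic, and 0 were higher, with a median of -0.57.

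Kinases, serum response factor and its cofactors act upstream of AP-1. Of 23 such genes, 3 rose and 1 fell with DSS in Tmem173fl/fl colon, with a median of 0.05. Both shares are close to the 14.9% and 7.61% of all tested genes. Map3k8, the kinase TPL2 that activates the ERK pathway in macrophages, rose from 0.803 ± 0.226 to 5.92 ± 0.881 FPKM (2.89), Elk3 rose by 2.11 and Map2k6, a kinase of p38, fell by 1.46 on the log2 scale. Map3k8 also rose in Tmem173iΔmye colon (1.69, SE 0.32, edgeR adjusted p 0.0264), and between the colitic genotypes 0 of the 23 passed and 5 had an unadjusted p under 0.05.

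The phosphatases and inhibitors that switch MAP kinases off gave 5 rises and 1 fall among 16 genes in Tmem173fl/fl colon (14.9% and 7.61% of all tested genes), with a median of 0.38. Dusp1, a phosphatase of p38 and JNK, rose from 9.72 ± 0.895 to 77.8 ± 14.6 FPKM (3.02, SE 0.17, edgeR adjusted p 2.092e-06), and the ERK pathway inhibitors Spred3, Spry4 and Spry1 rose by 2.61, 2.09 and 1.79. The gene that fell was Dusp6, an ERK phosphatase (-1.16, edgeR adjusted p 0.000296, named after its value was seen). With DSS in Tmem173iΔmye colon 0 of the 16 passed and 3 had an unadjusted p under 0.05. Dusp1, Spred3, Spry4 and Spry1 were lower in the Tmem173iΔmye group of the colitic genotypes, by log2 fold changes of -1.71 (Dusp1), -1.29 (Spry1), -1.27 (Spred3) and -1.21 (Spry4).

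Textbook targets of AP-1 had the highest median of these lists. Of 17 tested, 12 rose and 1, the cyclin gene Ccnd1, fell with DSS in Tmem173fl/fl colon (-1.10 for Ccnd1, named after its value was seen), and the median of 4.76 was that of the prostaglandin synthase gene Ptgs2. The stromelysin genes Mmp10 and Mmp3 rose from 0.425 ± 0.0633 to 266.0 ± 24.5 FPKM (9.29) and from 0.445 ± 0.210 to 97.1 ± 11.4 FPKM (7.75). In untreated libraries Mmp10 had only 9 to 13 counts and Mmp3 5 to 16, so the size of these folds is uncertain. The cytokine genes Il6, with 1 to 2 counts in untreated and 207 to 717 counts in colitic libraries, and Il11, with 0 to 8 and 564 to 2311 counts, were too low without DSS for a firm fold.

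In Tmem173iΔmye colon 10 of the 17 targets rose and 0 fell, with a median of 1.96. Between the colitic genotypes 10 were lower in Tmem173iΔmye colon and 1 (Ccnd1, 1.10) was higher, with a median of -2.06. Mmp10 was at 26.3 ± 16.4 against 266.0 ± 24.5 FPKM (-3.32), Il11 at 4.77 ± 1.71 against 46.8 ± 33.0 FPKM (-3.27), Ptgs2 at 8.46 ± 3.65 against 80.7 ± 47.2 FPKM (-3.23), and Hmox1, the haem oxygenase gene, at 12.2 ± 2.72 against 106.0 ± 61.8 FPKM (-3.10). Of 10 heat shock genes, which react to stress and handling, Hspb1 rose in colitic Tmem173fl/fl colon (2.47) and Hspd1 (-1.32), Hsp90aa1 (-1.21) and Hspe1 (-1.17) fell, and Hspb1 alone differed between the colitic genotypes (-1.44).

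**Figure D5:**
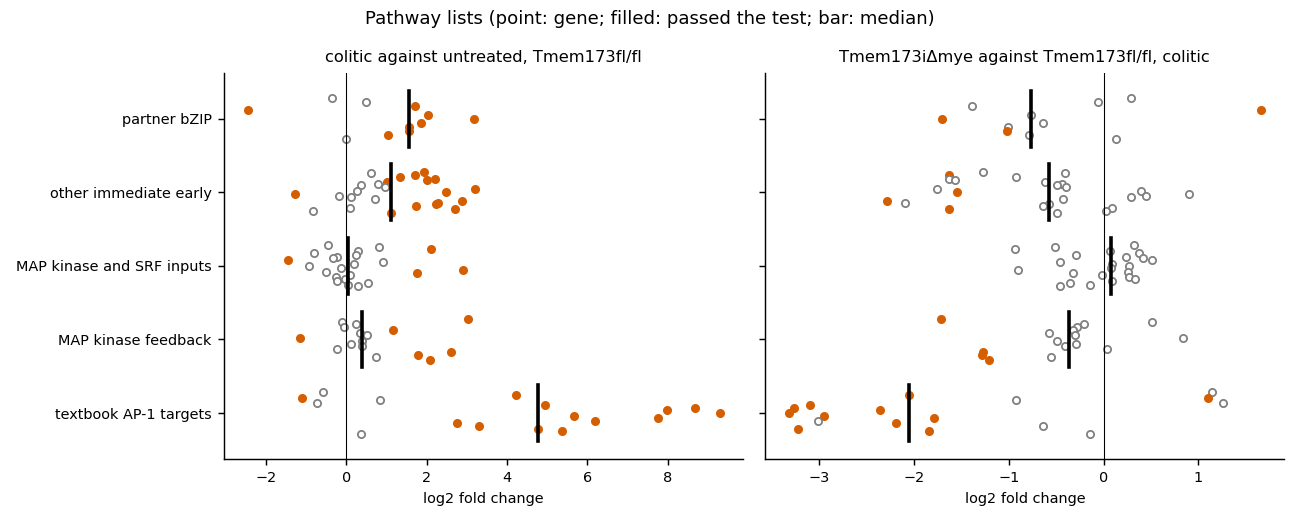
Log2 fold changes of the genes of 5 pathway lists for DSS in Tmem173fl/fl colon (left) and for Tmem173iΔmye against Tmem173fl/fl in colitis (right), 1 point per gene, filled where it passed the test, with a bar at the median. Target medians were 4.76 and -2.06 and input medians 0.05 and 0.08. Both panels share the colitic Tmem173fl/fl libraries, and the axes differ in scale.

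Over the 12 libraries the genes whose log2 levels ran most nearly with those of a member, out of 14557 searched, are given as a description, since the libraries share their groups. Ier3 ran with Dusp1 (r = 0.982) and with Mfap2 (r = 0.981). Fosl1 ran with Zyx, which codes for a protein of focal adhesions, and with Rnd1 (r = 0.975 each). Egr1 and Junb both had Zfp36, whose product destabilises cytokine mRNAs, among their nearest genes (r = 0.940 and 0.949). The first for Junb was Nab2, a corepressor of EGR factors (r = 0.949). Atf3 ran with Atp12a, a proton pump gene (r = 0.961), Haus8 (r = 0.951) and Dusp6 (r = 0.945). The nearest gene of Fos was Gtf2h4 at r = 0.892 and that of Fosb Zfand2b at r = 0.854, the lowest of the leading values. Those of Fosl2, Jun and Jund were Tom1l2 (r = 0.960), Chsy1 (r = 0.885) and Fam96b (r = 0.899).

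Markers of several cell types moved with these results. With DSS in Tmem173fl/fl colon 0 of 7 T cell, 0 of 6 smooth muscle and 1 of 7 B and plasma cell markers passed. Between the colitic genotypes 0 of these markers did. All 10 neutrophil markers, all 7 fibroblast markers and all 6 endothelium markers rose with DSS in Tmem173fl/fl colon, as did 8 of 10 monocyte and macrophage markers, and of 13 colon epithelium markers 7 fell and 1 (Car1, 1.63) rose, beside 14.9% of all tested genes that rose and 7.61% that fell. In Tmem173iΔmye colon 6 neutrophil, 3 monocyte and macrophage and 2 fibroblast markers rose, beside 1.48% of all tested genes, and 0 endothelium or epithelium markers passed, with 6 and 4 at an unadjusted p under 0.05. The neutrophil markers summed to 44.8 to 105.7 FPKM in untreated and 574.7 to 949.4 FPKM in colitic Tmem173fl/fl libraries, and to 44.6 to 82.7 FPKM and 235.8 to 330.8 FPKM in untreated and colitic Tmem173iΔmye libraries, with Mmp8 at 0 counts in the untreated Tmem173iΔmye group. The fibroblast markers summed to 148.5 to 178.1 FPKM and 1031 to 1299 FPKM in the former and to 148.9 to 183.9 FPKM and 306.2 to 427.9 FPKM in the latter genotype. The monocyte and macrophage markers ran from 238.0 to 366.4 and 697.9 to 925.9 FPKM, against 199.0 to 290.5 and 448.1 to 586.7 FPKM, and endothelium from 14.1 to 15.6 and 64.8 to 88.5 FPKM, against 15.5 to 17.9 and 23.4 to 46.3 FPKM. The epithelium sum was 7620 to 10480 FPKM without and 4301 to 6912 FPKM with DSS in Tmem173fl/fl colon, and 9046 to 9904 and 6595 to 8752 FPKM in Tmem173iΔmye colon. Red blood cell genes summed to 191.5 to 405.7 FPKM in colitic Tmem173fl/fl libraries and to at most 73.9 FPKM in any other. The part of these cells in the levels of the 10 genes was not tested.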

How the data were processed

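Poly(A) RNA of mouse colon was sequenced in 12 libraries. Per the submitters' processing notes, the authors used CASAVA 1.8, fastp, HISAT2 2.0.5, featureCounts 1.5.0-p3 and DESeq2 1.20.0 with GRCm38. The strand setting was not given in the sources used here. The authors deposited whole-number counts per gene and library, with no normalisation. The deposited FPKM values equal counts divided by gene length, by library total and by 1 constant per library, from 0.9581 to 1.121. Its lowest and highest values fell in the libraries with the lowest and highest TMM scaling factor, 0.9307 and 1.1291. Deposited columns of fold changes, p-values and group means, which hold the authors' comparisons, were not used.

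Groups came from the sample titles. Counts were tested with edgeR 4.0.16 (R 4.3.3; TMM scaling, glmQLFit and glmQLFTest) over the 24102 genes that reached 0.1 FPKM in 3 or more libraries. Only the groups compared entered a fit, except for the interaction. SE is the size of the log2 fold change divided by the square root of F, and 95% intervals are 1.96 SE to each side. This normal quantile makes them too narrow for so few libraries. For Egr1 between the colitic genotypes the interval ran from -2.72 to -0.114, while edgeR's unadjusted p was 0.0631. Replicates are separate samples by their titles, but that each is another mouse was taken from no label, so p-values measure the spread between these libraries. Alternatives were DESeq2 1.42.0, limma 3.58.1 on log2(FPKM + 0.1), other scalings, filters and thresholds, a replicate block, and leaving out libraries singly. The restriction to libraries with Y-linked counts was added after the data were seen. The tests were tried on simulated data, the outcome of which is not given here. Text names all 10 genes, up to 4 genes per list that passed with the largest change and a mean FPKM of at least 1, and at least the first of the 3 genes with the highest Pearson r of log2(CPM + 0.5) to each member. Another gene that this rule named is not reported here. The members and lists were chosen with earlier results of these data known. Promoters are from RefSeq.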

Additional observations from a re-analysis of the deposited data

Results flagged for a closer look

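Genes are listed here because they passed the interaction test of genotype and DSS over 12 libraries (edgeR, adjusted p under 0.05 and at least 1 in size on the log2 scale). Among the AP-1 and immediate early genes this was Ier3, with a log2 difference of -1.64 (Tmem173iΔmye response minus Tmem173fl/fl response). Among the bZIP partners it was -2.29 for Jdp2 and 2.01 for Batf2, and among the other immediate early genes -2.26 for Nr4a2. The MAP kinase phosphatase gene Dusp1 had -1.83 and the ERK pathway inhibitor gene Spry1 had -1.49. Of the 17 AP-1 targets tested, 8 had a negative difference (1.61% of all tested genes, and 0.934% a positive one), of which the 4 largest were -4.13 for Mmp10, -3.40 for Hmox1, -3.08 for Mmp13 and -3.02 for Timp1. The other one that passed, Ccnd1, had a positive difference of 1.21 and was named after its value was seen. The small heat shock gene Hspb1 had -1.77. These values share the colitic Tmem173fl/fl libraries with the comparisons given before them, and the sums of neutrophil, fibroblast and endothelium markers differed between the same groups. Their part was not tested. The Ier3 call was lost in 12 of 24 alternative settings, those with a library left out included. Single values of the other genes listed were not put through these settings.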

How the results depend on the processing

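With DSS in Tmem173fl/fl colon the count of the 10 genes that passed was 5, from 4 to 6 with the alternatives that left out no single library, and from 5 to 7 with 1 library left out, with 7 (Fos and Fosb added) without colitic Tmem173fl/fl replicate 1. For DSS in Tmem173iΔmye colon the count of 1 was 2 with no filter on low genes, with DESeq2 and with a replicate block, 3 at an unadjusted p, 0 in limma at each of 3 pseudocounts, and 0 to 2 with 1 library left out. Between the colitic genotypes the count of 3 was 4 with DESeq2 and at an unadjusted p (Junb added), 2 with library totals and with filterByExpr, 0 in limma at each pseudocount, 1 with a replicate block, 1 with only libraries holding Y-linked counts (the same fit as without Tmem173iΔmye replicate 5), and 0 to 3 with 1 library left out. For the interaction the count of 1 was 3 with no filter, 4 with DESeq2, 4 at an unadjusted p, 0 in limma at pseudocounts of 0.1 and 0.01, 0 with a replicate block, 0 with only libraries holding Y-linked counts, and 0 to 2 with 1 library left out. The cause was not tested. With the block the values were 1.05 for Atf3 (edgeR adjusted p 0.0811) and -1.31 for Fosl1 (edgeR adjusted p 0.067) between the colitic genotypes and -1.51 for the interaction of Ier3 (edgeR adjusted p 0.0606), none of which passed. The block added a call for Fos with DSS in Tmem173fl/fl colon (-1.135, edgeR adjusted p 0.017). It also added Egr1 with DSS in Tmem173iΔmye colon (1.81, edgeR adjusted p 0.00825). Colitic Tmem173iΔmye replicate 5 has no library of the same number, so the block gave it no weight. Where that group was set against a single other group, the block rests on replicates 1 and 2 alone. Replicate numbers did not pair the samples: the correlation of same-numbered libraries' deviations ran from -0.213 to 0.226, and no comparison had every pair above 0.1.

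Of 640 values of single genes under other settings 7 changed sign: without DSS Ier3 was 0.021 with library totals, and Fosl2 was -0.037 and Junb -0.154 with Y-linked libraries only. Jund between the colitic genotypes was -0.044 with library totals, -0.164 with a replicate block and -0.165 with Y-linked libraries only, and the interaction of Fosb was -0.529 with the block. The 640 include the settings of adjusted p alone and of unadjusted p, which leave each value as it is and so cannot change its sign. With 1 library left out 29 of 360 changed sign. With DSS in Tmem173fl/fl colon Fosb ran from -1.21 to 0.023 and Jund from -0.37 to 0.04, and in Tmem173iΔmye colon Fosb ran from -0.69 to 0.246, Jun from -0.239 to 0.309 and Junb from -0.28 to 0.459. Between the untreated genotypes the ranges were -0.241 to 0.055 (Fos), -0.493 to 0.161 (Fosl1), -0.036 to 0.282 (Fosl2), -0.03 to 0.281 (Jun), -0.241 to 0.182 (Atf3), -0.674 to 0.066 (Egr1) and -0.304 to 0.185 (Ier3). Between the colitic genotypes Fosb ran from -0.633 to 0.752 and Jund from -0.165 to 0.252, and for the interaction Fosb ran from -0.326 to 1.02 and Egr1 from -1.64 to 0.061.

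Scaling by library totals moved the median of all genes from 0.03 to 0.17 for DSS in Tmem173fl/fl colon and from 0.04 to -0.13 for the interaction. The share of higher genes among those that passed went from 66.2% to 73.9%, from 29.2% to 19.2% between the colitic genotypes and from 36.6% to 21.3% for the interaction.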
